A study of Mus musculus with 4 samples.

Results

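The genes described here encode the D-type cyclins (Ccnd1, Ccnd2, Ccnd3), their kinases (Cdk4, Cdk6), the CIP/KIP inhibitor p27 (Cdkn1b) and the INK4 inhibitors (Cdkn2a, Cdkn2b, Cdkn2c, Cdkn2d). They were chosen by name, and all 10 were found by symbol among the 54532 gene IDs of the count table. The RNA came from cranial neural tubes microdissected from mouse embryos at embryonic day 10.5, with 1 embryo per library. Control 1 and Control 2 lacked the Cre transgene, and whether they carried floxed alleles is not stated. DCKO 1 and DCKO 2 were homozygous for floxed alleles of both Hippo pathway kinases (Lats1 flox/flox and Lats2 flox/flox) and carried the transgene E2f1 Tg(Wnt1-cre)2Sor/+, a Cre that Wnt1 regulatory sequences drive in the dorsal neural tube and neural crest. The deletion is therefore expected in only some of the dissected cells, and Cre and deletion cannot be told apart. The only comparison is DCKO against Control.

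D-type cyclins are made in response to mitogens and patterning signals and bind CDK4 or CDK6. The active kinases phosphorylate the retinoblastoma protein RB and its relatives, which then release E2F transcription factors and allow entry into S phase. INK4 proteins bind CDK4 and CDK6 and block the partnership with the cyclin, while p27 mainly inhibits CDK2 and is also held by cyclin D complexes. In the embryonic neural tube, cyclin D1 and cyclin D2 are the main D cyclins of dividing progenitors, and p27 and some INK4 proteins accumulate as cells leave the cycle.

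Libraries held 41798361 to 55137810 counts. Genes of the ribosomal RNA cluster took 13.2% and 12.4% of the counts in Control, against 24.7% and 30.3% in DCKO, and the TMM scaling factors (trimmed mean of M values) were 1.14 and 1.12 in Control, against 0.888 and 0.885 in DCKO. With these genes and erythroid genes left out, Ccnd1, Cdk6, Cdkn1b and Cdkn2c kept the calls described here. Of 19207 genes kept for testing, 1716 were higher and 1558 lower in DCKO at an adjusted p under 0.05 in edgeR, with a median log2 fold change of 0.03. Lats1 had 44.2 and 65.6 CPM (counts scaled to library size with TMM factors) in Control, against 30.0 and 29.7 in DCKO, with an adjusted p of 0.0538 (0.00643 in DESeq2 and 0.0179 with library totals). Lats2 had 26.7 and 13.3 CPM in Control, against 21.2 and 35.3 in DCKO, with an adjusted p of 0.426, so its counts give no check of the genotype. Xist had 10837 and 7786 counts in Control, against 8 and 22 in DCKO, so embryo sex and group cannot be told apart. Of 12 neural progenitor markers 9 were lower, with a summed level of 3267 to 3670 CPM in Control, against 2039 to 2599 in DCKO, and all 12 were detected. Their log2 fold change was negative for 11, with a median of -1.90, and DESeq2 called 10 lower and 1 higher. Of 12 neuronal markers 7 were lower (1052 to 1330 against 260 to 580 CPM). In the same libraries 11 of 12 surface ectoderm markers were higher (19.1 to 22.9 against 362 to 490 CPM), as were 9 of 12 cranial mesenchyme markers (644 to 676 against 2006 to 4420), 7 of 12 endothelial markers (175 to 184 against 450 to 738) and 5 of 9 pericyte and mural markers (220 to 229 against 568 to 789), of which 1 was lower. Of 10 erythroid markers 7 were lower (2542 to 3774 against 658 to 893 CPM), and of 7 neural crest markers 1 was higher (63.4 to 73.6 against 73.5 to 189). With all 4 libraries, only 8 of the 9 pericyte and mural and 6 of the 7 neural crest markers passed the filter and were tested. Of 10 macrophage markers 0 passed in edgeR (30.2 to 39.9 against 26.7 to 85.7 CPM), DESeq2 or limma-voom, and 0, 1 and 0 of them had an unadjusted p under 0.05, but 5 were called higher in edgeR without DCKO 2. These counts change when 1 library is left out, and so do the counts over all tested genes, which drop sharply without a Control library. Without Control 1 and without Control 2 in turn, edgeR called 4 and 4 progenitor, 3 and 2 neuronal and 5 and 1 erythroid markers lower. It then called 8 and 6 surface ectoderm and 3 and 1 pericyte and mural markers higher. It called 0 mesenchyme, endothelial or neural crest markers in either fit, although 10 and 10, 9 and 8, and 2 and 2 of them had an unadjusted p under 0.05. Without DCKO 1 the neuronal count was 11 and the neural crest count 5, and without DCKO 2 the pericyte and mural count was 8. None of these markers was at 0 in both Control libraries. In such bulk tissue, fewer cells of a type and less RNA per cell cannot be told apart, and the part of cell composition in the results that follow was not tested.

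The family did not move as one. Cdkn2c and Ccnd1 fell in DCKO, Cdk6 and Cdkn1b rose, and Cdkn2b had counts in the DCKO libraries alone. Ccnd2, Ccnd3, Cdk4 and Cdkn2d did not pass the threshold, and Cdkn2a had 0 counts in every library. Of the 10 genes, 9 passed the filter on low counts. Cdkn2b passed it only through its DCKO counts, so its test is void and is not counted here. Of the other 8, 2 were called higher and 2 lower, against 8.93% of all tested genes called higher and 8.11% called lower. In limma on unfiltered log2(TPM + 1) none of these calls held, and in edgeR without Control 2 none held either. Of the same 8 genes, both DCKO libraries lay below both Control libraries for 4 and above them for 2, Cdk6 and Cdkn1b. Over all tested genes these arrangements were found for 32.9% and 33.6%, together 66.4%.

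**Figure D1:**
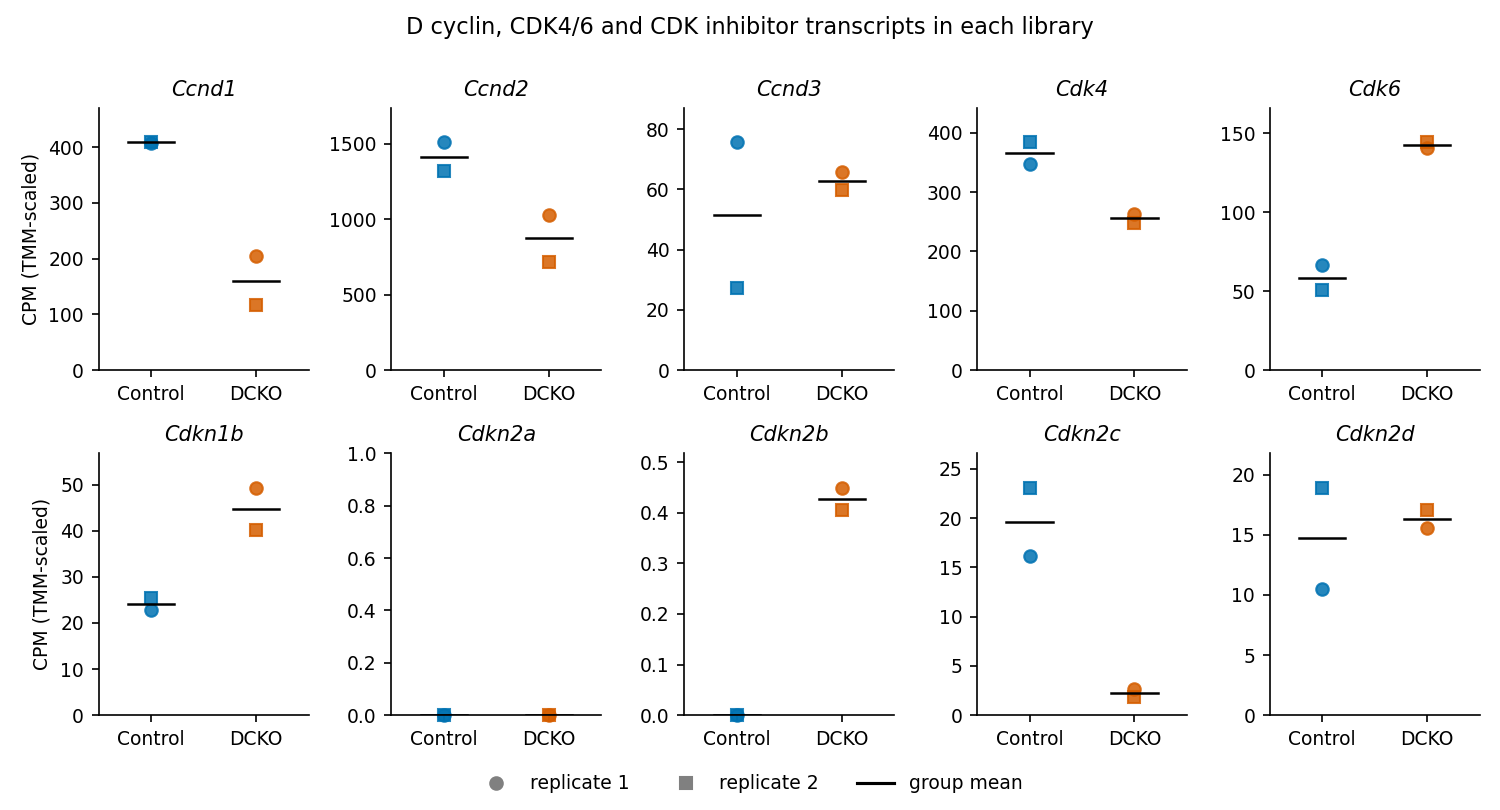
CPM (counts scaled to library size with TMM factors, each vertical axis from 0) of the 10 genes in each library, with points for the 2 replicates of each group and a line at the group mean. Ccnd1, Ccnd2, Cdk4 and Cdkn2c lie lower in both DCKO libraries, Cdk6, Cdkn1b and Cdkn2b lie higher, and Ccnd3 and Cdkn2d overlap between groups.

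Levels of different genes were compared in TPM, the authors' length-scaled unit. In Control, Ccnd2 (334 to 465 TPM) and Cdk4 (350 to 387 TPM) were the most abundant and their ranges overlapped, followed by Ccnd1 (170 to 205 TPM) and Ccnd3 (23.3 to 94.4 TPM). Cdkn2d, Cdkn2c, Cdk6 and Cdkn1b all lay between 12.9 and 20.4 TPM, and in that order each one's range overlapped the next. In DCKO, Cdk4 (230 to 250 TPM) came first, then Ccnd2 (188 to 229 TPM), then Ccnd1 (50.1 to 73.2 TPM), whose range overlapped that of Ccnd3 (48.9 to 52.4 TPM), which in turn overlapped that of Cdk6 (39.1 to 49.5 TPM). Cdkn2c dropped to 1.18 to 1.56 TPM, below Cdkn1b (20.0 to 20.8 TPM) and Cdkn2d (14.8 to 18.9 TPM), and only Cdkn2b, at 0.422 to 0.451 TPM, was lower among the genes with a TPM.

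Among the D cyclins, Ccnd1 (ENSMUSG00000070348, chr7:144929931-144939925, minus strand, GRCm38) fell. It encodes cyclin D1, a widely studied target of mitogen and Wnt signalling. It had 408 CPM in Control 1, 408 in Control 2, 204 in DCKO 1 and 117 in DCKO 2. The Control libraries were nearly equal, and both DCKO libraries lay well below them, DCKO 2 further than DCKO 1. The group means were 408 ± 0.373 CPM in Control, against 160 ± 61.0 in DCKO (SD, n = 2), a log2 fold change of -1.35 (SE 0.28, edgeR adjusted p 0.0333). It was -1.80 without DCKO 1 and -1.005 without DCKO 2, and the call was lost without Control 1 (adjusted p 0.129) or Control 2 (0.127), when the DCKO pair alone sets the spread. DCKO 2 also had the lower sum of neural progenitor markers, and the part of that in the result was not tested.

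Ccnd2 (ENSMUSG00000000184, chr6:127125162-127152193, minus strand) encodes cyclin D2, whose message is known in the mouse for its enrichment in neuroepithelial progenitors and their basal endfeet. It had 1509 and 1317 CPM in Control 1 and Control 2, and 1029 and 719 in DCKO 1 and DCKO 2. Both DCKO libraries were below both Control libraries, but its fitted change of -0.69 on the log2 scale (SE 0.23) did not pass in edgeR (adjusted p 0.0901). It passed in DESeq2 (-0.70, adjusted p 0.0244), with library totals (-1.04, 0.0281) and on log2(TPM + 1) filtered at a mean of 1 (-0.92, 0.0275). The median of all genes was -0.32 with library totals and -0.19 on that filtered TPM. In edgeR the change of Ccnd2 was -0.98 without DCKO 1 and -0.46 without DCKO 2.

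Ccnd3 (ENSMUSG00000034165, chr17:47505051-47599691, plus strand) encodes cyclin D3, which is better known from blood cells and muscle. It had 75.6 CPM in Control 1, 27.4 in Control 2, 65.9 in DCKO 1 and 59.8 in DCKO 2. Both DCKO libraries lay between the 2 Control libraries, which differed 2.76-fold. Only 0.654% of the 4284 genes within 1 log2 unit of its mean level differed as much between the Control libraries. The gene Bysl, which overlaps the end of Ccnd3 on the other strand, had 6841 and 5632 counts in Control, against 3668 and 3899 in DCKO, without such a gap. The log2 fold change of Ccnd3 was 0.29 (SE 0.46, edgeR adjusted p 0.691), and it was 1.19 without Control 1 and -0.30 without Control 2, so 1 library decides its sign.

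Within a library, shares of the summed TPM of the 3 D cyclins do not depend on how libraries are scaled. Ccnd1 made up 26.8% and 32.2% in Control, against 20.6% and 17.4% in DCKO. Ccnd2 made up 60.8% and 63.4% in Control, against 64.6% and 65.5% in DCKO, and remained the main D cyclin in each library. Ccnd3 made up 12.3% and 4.42% in Control, against 14.8% and 17.004% in DCKO. The share of Ccnd1 was lower and those of Ccnd2 and Ccnd3 higher in both DCKO libraries. The exact two-sided permutation test gave p = 0.333 for each share, the smallest p that 2 libraries against 2 allow. The summed D cyclin level was 765 and 527 TPM in Control, against 355 and 287 TPM in DCKO. On filtered log2(TPM + 1), the median change of all genes was itself -0.19.

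**Figure D2:**
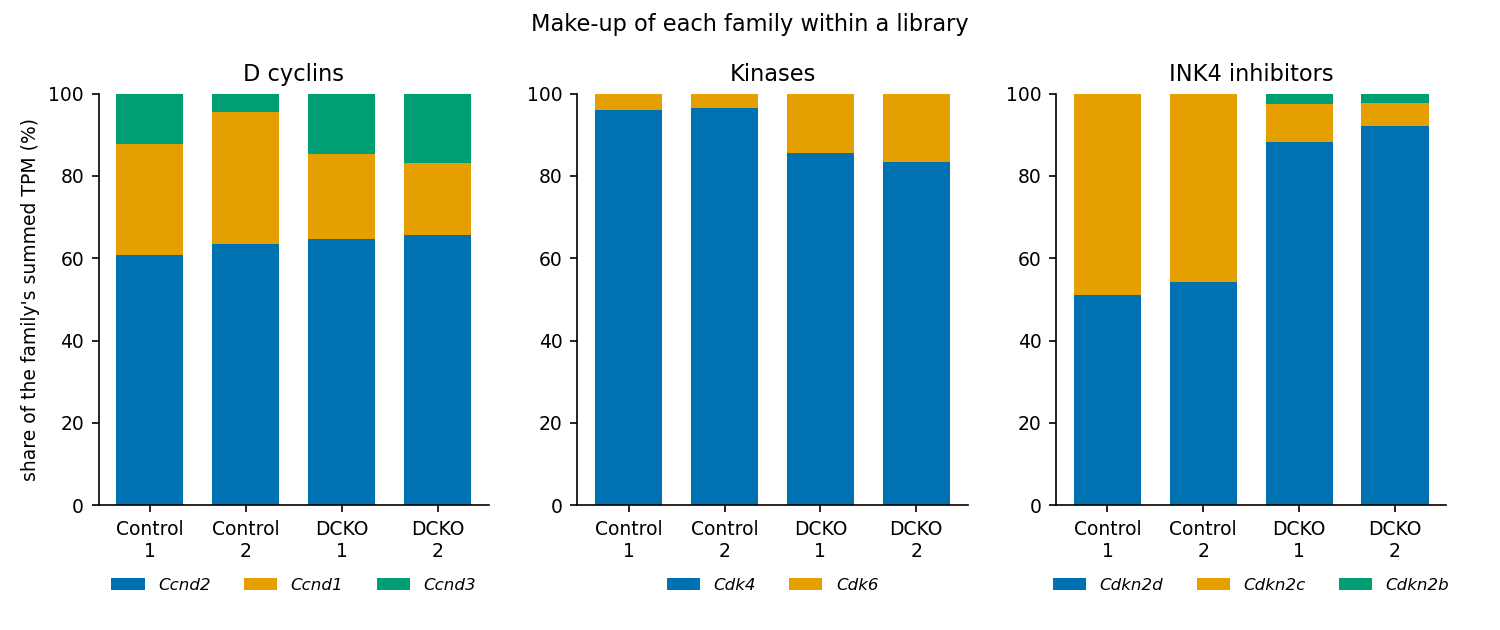
Share (%) of each gene in the summed TPM of its family, per library, for the D cyclins, the kinases and the INK4 inhibitors, with Cdkn2a counted as 0. Ccnd1 shrinks from 26.8% and 32.2% in Control to 20.6% and 17.4% in DCKO, Cdk6 grows to 14.5% and 16.5%, and Cdkn2c shrinks from 48.9% and 45.8% to 9.27% and 5.77%.

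Of the kinases, Cdk6 rose and Cdk4 did not pass. Both bind D cyclins and phosphorylate RB, and CDK6 is best known from blood cell development. Cdk6 (ENSMUSG00000040274, chr5:3341485-3531008, plus strand) had 66.5 and 50.6 CPM in Control 1 and Control 2, and 141 and 144 in DCKO 1 and DCKO 2. The DCKO libraries were nearly equal, and both lay far above both Control libraries. The means were 58.5 ± 11.3 and 142 ± 2.49 CPM (SD, n = 2), a log2 fold change of 1.28 (SE 0.19, edgeR adjusted p 0.0170). The call was lost without Control 1 (adjusted p 0.0635) or Control 2 (0.119), with log2 fold changes of 1.49 and 1.07. Gm17590, an antisense model inside Cdk6, had 31 and 8 counts in Control, against 132 and 84 in DCKO, far fewer than the 2559 to 5628 counts of Cdk6.

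Cdk4 (ENSMUSG00000006728, chr10:127063534-127067920, plus strand) had 348 and 384 CPM in Control, against 264 and 248 in DCKO. Both DCKO libraries were below both Control libraries, at -0.52 on the log2 scale (SE 0.15, edgeR adjusted p 0.0744). It passed in DESeq2 (-0.52, adjusted p 0.0155) and with library totals (-0.86, 0.0176), where the median of all genes was -0.32. The 3' end of Cdk4 overlaps Tspan31 on the other strand, which had 5317 and 4548 counts in Control, against 3879 and 3838 in DCKO. Cdk6 accounted for 4.08% and 3.62% of the summed Cdk4 and Cdk6 TPM in Control, against 14.5% and 16.5% in DCKO, a share chosen for description after the values were seen. Cdk4 thus remained the more abundant kinase transcript in all 4 libraries, and the summed kinase level was 403 and 363 TPM in Control, against 269 and 300 TPM in DCKO. On filtered log2(TPM + 1), the median change of all genes was itself -0.19. With counts per kilobase of exon, the DCKO minus Control difference in Cdk6 share was 7.84 percentage points (11.7 with TPM).

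The promoters of the kinase pair and of Cdkn2c, the inhibitor gene that fell, are shown because Cdk6 rose and Cdkn2c fell in the same libraries, with Cdk4 beside its sister kinase. RefSeq (GRCm38.p6) windows from 250 bases before to 50 bases after a start site were found for 8 of the 10 genes, 11 windows in all. Capitals mark 3 motifs searched on both strands. The first is GGAATG, the core sequence bound by TEAD factors. The second is the E-box bound by MYC, which reads CACGTG on both strands alike. The third is the GC box bound by SP1, which reads GGGCGG on one strand or CCGCCC on the other. Matches can overlap, and each sequence is written 5′ to 3′ along its gene.
Cdk4, chr10:127063285-127063584, plus strand: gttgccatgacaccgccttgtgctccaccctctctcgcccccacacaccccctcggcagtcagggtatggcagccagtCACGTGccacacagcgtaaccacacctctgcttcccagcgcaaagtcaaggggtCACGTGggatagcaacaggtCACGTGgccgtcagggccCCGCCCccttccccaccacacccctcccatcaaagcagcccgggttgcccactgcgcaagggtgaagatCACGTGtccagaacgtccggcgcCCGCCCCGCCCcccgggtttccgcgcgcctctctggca
Cdk6, chr5:3343643-3343942, plus strand: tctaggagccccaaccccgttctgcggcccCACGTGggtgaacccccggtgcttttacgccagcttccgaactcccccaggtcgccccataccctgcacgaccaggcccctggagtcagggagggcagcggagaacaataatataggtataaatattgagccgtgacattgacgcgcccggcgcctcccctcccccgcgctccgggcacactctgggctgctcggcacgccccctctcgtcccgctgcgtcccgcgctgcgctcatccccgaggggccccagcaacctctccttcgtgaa
Cdkn2c, upstream start, chr4:109666707-109667006, minus strand: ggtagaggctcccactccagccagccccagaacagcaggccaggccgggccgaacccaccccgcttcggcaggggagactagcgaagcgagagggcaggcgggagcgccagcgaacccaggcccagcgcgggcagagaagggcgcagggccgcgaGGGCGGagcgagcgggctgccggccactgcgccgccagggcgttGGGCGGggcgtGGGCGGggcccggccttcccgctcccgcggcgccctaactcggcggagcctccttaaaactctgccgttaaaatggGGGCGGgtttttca
Cdkn2c, downstream start, chr4:109665323-109665622, minus strand: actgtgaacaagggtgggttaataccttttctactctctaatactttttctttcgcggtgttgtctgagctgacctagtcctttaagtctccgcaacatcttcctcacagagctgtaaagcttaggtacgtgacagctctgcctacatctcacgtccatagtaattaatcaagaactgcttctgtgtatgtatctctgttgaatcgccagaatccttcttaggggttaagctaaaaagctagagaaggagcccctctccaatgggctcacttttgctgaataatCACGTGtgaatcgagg
The Cdk4 window held 4 E-boxes and 3 GC boxes, and the Cdk6 window 1 E-box. The upstream Cdkn2c window held 4 GC boxes and the downstream one 1 E-box. Among 32851 RefSeq promoter windows of this length, 7.15% held the E-box, 35.7% the GC box and 14.7% the TEAD core. Of the 11 windows of the family, 3 held the E-box, all of them printed here, and 9 the GC box. The TEAD core was found in 1, at the downstream start of Ccnd3. These are matches of letters, not measured binding.

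Cdkn2c (ENSMUSG00000028551, chr4:109660876-109667189, minus strand) fell more than any other of these genes. It encodes p18, an INK4 inhibitor known from dividing neural progenitors of the mouse. It had 1010 and 1169 counts in Control 1 and Control 2 and 108 and 67 in DCKO 1 and DCKO 2, that is 16.1 and 23.1 against 2.70 and 1.81 CPM. Both DCKO libraries lay far below both Control libraries. The means were 19.6 ± 4.93 and 2.26 ± 0.627 CPM (SD, n = 2), an 8.67-fold difference or a log2 fold change of -3.12 (SE 0.33, edgeR adjusted p 0.00919). No annotated gene overlaps it. Without Control 2 the log2 fold change was -2.87 and the adjusted p 0.0513, and without Control 1 it was -3.36 (0.0344).

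Cdkn2d (ENSMUSG00000096472, chr9:21288410-21291407, minus strand) encodes p19 INK4d, which is known to persist in postmitotic neurons of the mouse. It had 10.5 and 18.9 CPM in Control, against 15.5 and 17.1 in DCKO. Both DCKO libraries lay between the Control libraries, and the log2 fold change was 0.15 (SE 0.32, edgeR adjusted p 0.770). Its sign turned with library totals (-0.20) and without Control 1 (-0.22).

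Cdkn2b (ENSMUSG00000073802, chr4:89306299-89311039, minus strand) encodes p15, which in epithelial cells is a known response gene of TGF-beta. It had 0 counts in both Control libraries and 18 and 15 in DCKO 1 and DCKO 2. At 0.450 and 0.406 CPM in DCKO its mean was 7.98 times a floor of 3 counts in each Control library. That bound allows for counting error in Control only, not in the 18 and 15 DCKO counts. No test is given for it, because it passed the filter on low counts only through the group where it is high. Its neighbour Cdkn2a (ENSMUSG00000044303, chr4:89274471-89294653, minus strand), which encodes both p16 INK4a and the p53 regulator ARF, had 0 counts in all 4 libraries. A count of 0 allows up to 3 counts, or 0.0479 to 0.0812 CPM at these depths, so Cdkn2a was not detectable at this depth. Both genes are known targets of repression by Polycomb proteins.

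Cdkn2c took 48.9% and 45.8% of the summed INK4 TPM in Control, against 9.27% and 5.77% in DCKO, and Cdkn2d took nearly all of the rest, again a description chosen after the values were seen. The ratio of summed INK4 TPM to summed Cdk4 and Cdk6 TPM was 0.0703 and 0.104 in Control, against 0.0624 and 0.0685 in DCKO. In TPM the ratio was lower in both DCKO libraries, but the gap to Control 1 was small. The exact two-sided permutation test gave its smallest possible p of 0.333. With counts per kilobase of exon the groups overlapped, and the DCKO minus Control difference in means was -0.012 (-0.021 with TPM). The ratio counts transcripts of both products of Cdkn2a as INK4, which adds nothing here since that gene was at 0.

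Cdkn1b (ENSMUSG00000003031, chr6:134920401-134925513, plus strand), which encodes the CIP/KIP inhibitor p27, rose. It had 22.9 and 25.4 CPM in Control, against 49.4 and 40.2 in DCKO. Both DCKO libraries were clearly above both Control libraries. The means were 24.1 ± 1.74 and 44.8 ± 6.49 CPM (SD, n = 2), a log2 fold change of 0.89 (SE 0.18, edgeR adjusted p 0.0310). The call was lost without Control 1 (adjusted p 0.223) or Control 2 (0.178), with library totals (0.54, 0.0783) and on TPM filtered at a mean of 1 (0.51, 0.212), where the authors' values were 15.3 and 12.9 TPM in Control, against 20.8 and 20.0 TPM in DCKO.

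**Figure D3:**
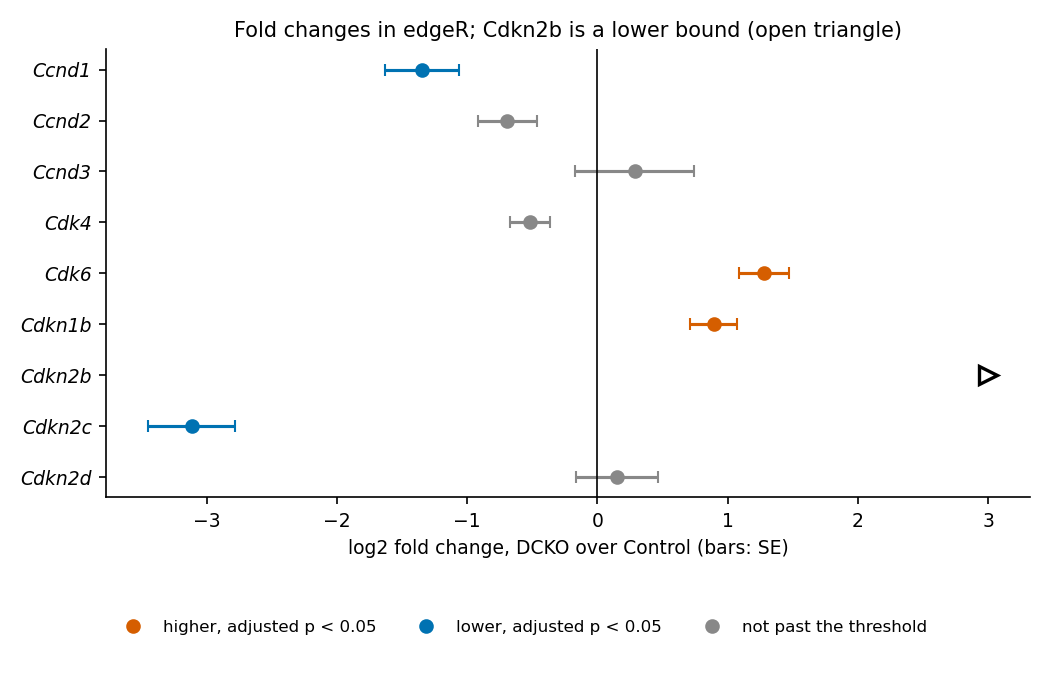
Log2 fold change of DCKO over Control in edgeR for the 9 tested genes, with bars for the SE and colours for the call at an adjusted p of 0.05. Cdkn2c lies at -3.12 and Ccnd1 at -1.35, Cdk6 at 1.28 and Cdkn1b at 0.89. The open black triangle marks the lower bound of Cdkn2b, which had 0 counts in Control and has no test here. That bound allows for counting error in Control only.

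The authors' deposited table, in which positive values are higher in DCKO, holds 8 of the 10 genes. In the authors' deposited table the false discovery rate (FDR) was under 0.05 for Ccnd1 (log2 fold change -1.29, FDR 0.000179), Cdk6 (1.34, 1.27e-05), Cdkn1b (0.95, 0.00428) and Cdkn2c (-3.06, 1.86e-11), as for 28.8% of its 12574 genes. In the authors' deposited table Ccnd2 had -0.64 (FDR 0.0914), Cdk4 -0.46 (0.163), Ccnd3 0.35 (0.545) and Cdkn2d 0.20 (0.726). Ccnd1, Cdk6, Cdkn1b and Cdkn2c were also called in edgeR here.

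Downstream of the D cyclin kinases, 4 of 13 genes of the RB and E2F proteins fell in edgeR and the other 9 did not pass, against 8.11% of all genes called lower. The log2 fold change was negative for 12 of 13, against 48.8% of all genes. The count that fell was 10 with library totals, when 3744 of all 19207 genes fell, against 1558 with TMM scaling. Fewer genes of the list were called without either Control library and more without DCKO 1, and the same held over all genes. The list's median was -0.64, against 0.03 for all genes. E2f2, an activator E2F, had 30.8 and 31.5 CPM in Control, against 3.85 and 2.38 in DCKO (log2 fold change -3.32, SE 0.29, adjusted p 0.00761). E2f3, also an activator, had 74.7 and 71.4 CPM in Control, against 19.9 and 21.5 in DCKO (-1.82, SE 0.16, 0.00743). Tfdp1, the DNA-binding partner of E2F proteins, and the repressor E2f7 fell by 0.89 and 1.12 on the log2 scale. E2f1 had 46.5 and 50.2 CPM in Control, against 33.0 and 18.5 in DCKO, and its change of -0.91 on the log2 scale (SE 0.29) did not pass (adjusted p 0.0891). It passed in DESeq2 (0.0251), with library totals (0.0326), on filtered log2(TPM + 1) (0.0239) and in edgeR without DCKO 1 (0.00624). Library totals and filtered log2(TPM + 1) put the median of all genes at -0.32 and -0.19. The labels write the Cre transgene as an allele of E2f1, so the transgene's own effect on this gene and that of the deletion cannot be told apart. E2f2 and E2f3 kept their calls without any single library, while Tfdp1 and E2f7 lost theirs without either Control (adjusted p 0.134 to 0.178).

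Of 16 S phase genes known as E2F targets, 5 fell in edgeR, against 8.11% of all genes, and the other 11 did not pass. The log2 fold change was negative for 15 of 16, against 48.8% of all genes, and the median was -0.41. The count that fell was 11 with library totals, when 3744 of all 19207 genes fell, against 1558 with TMM scaling. The 5 calls were lost without Control 1 or Control 2, fits in which far fewer of all genes were called. Tk1, thymidine kinase, had 56.2 and 58.4 CPM in Control, against 19.0 and 21.3 in DCKO (log2 fold change -1.51, SE 0.16, adjusted p 0.00919). Tyms, thymidylate synthase, and the replication licensing factor Cdc6 fell by 0.96 and 0.91 on the log2 scale. Without Control 1 or Control 2 in turn, Tk1 had adjusted p-values of 0.0583 and 0.0678, Tyms 0.165 and 0.173 and Cdc6 0.140 and 0.174. These genes are expressed by cycling cells of any type, and most neural progenitor markers fell in the same libraries, whose part was not tested.

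**Figure D4:**
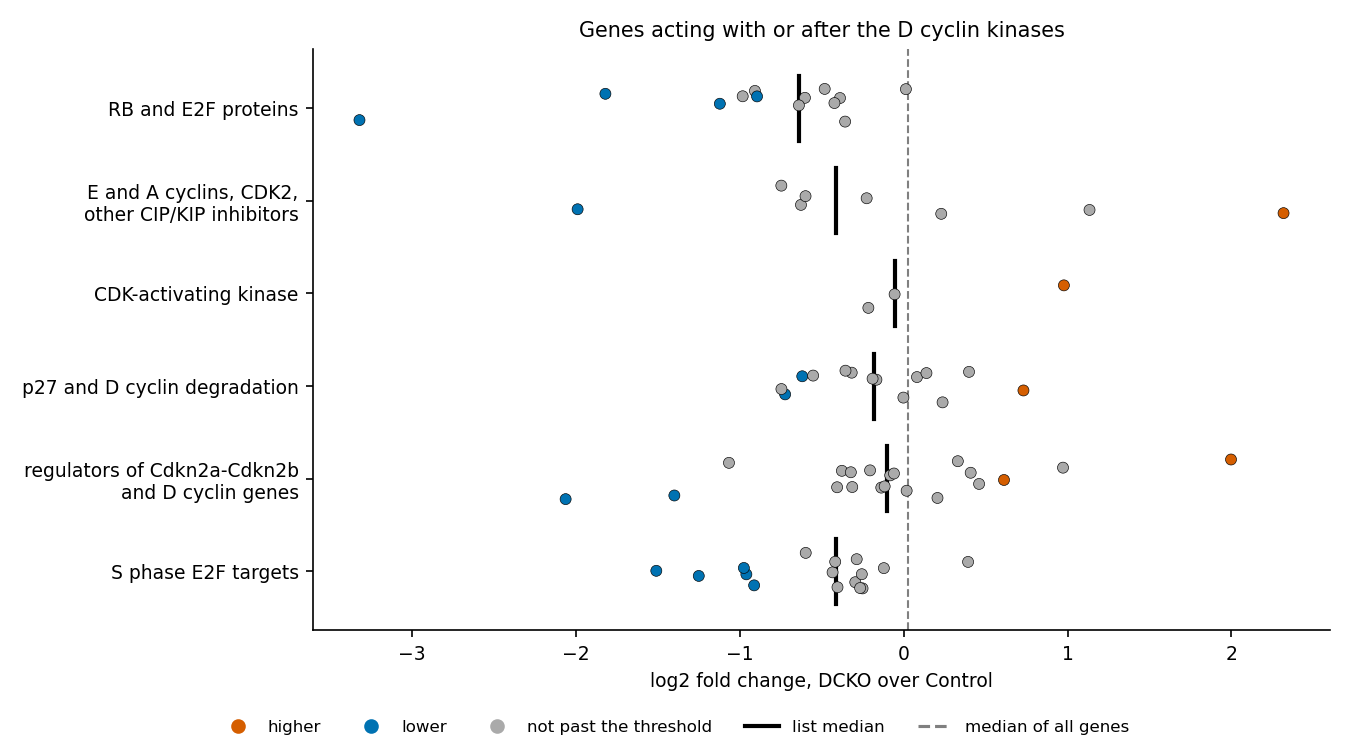
Log2 fold change of DCKO over Control in edgeR for the genes of 6 lists, 1 point per gene coloured by its call, with a bar at each list's median and a dashed line at the median of all tested genes (0.03). The RB and E2F list and the S phase list lie mostly left of 0, with medians of -0.64 and -0.41, and the other lists spread to both sides.

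Of 8 E and A cyclin, CDK2 and CIP/KIP genes, 1 fell and 1 rose, with a median of -0.41. The shares over all genes were 8.11% called lower and 8.93% called higher. Ccne1, cyclin E1, which takes over from the D cyclins at the start of S phase, had 62.0 and 54.4 CPM in Control, against 12.1 and 17.2 in DCKO (log2 fold change -1.99, SE 0.23, adjusted p 0.0101). Cdkn1a, the p53-responsive inhibitor p21, had 9.23 and 7.41 CPM in Control, against 32.3 and 50.7 in DCKO (2.32, SE 0.28, 0.0117). Cdkn1c, named here to complete the CIP/KIP family, had a log2 fold change of 0.23 with an adjusted p of 0.506. Without Control 1 or Control 2 the adjusted p was 0.0556 and 0.0513 for Ccne1, and 0.0532 and 0.0731 for Cdkn1a.

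Of the 3 subunits of the CDK-activating kinase, the assembly factor Mnat1 rose from 24.3 and 24.6 CPM in Control to 46.3 and 49.985 in DCKO (log2 fold change 0.98, SE 0.15, adjusted p 0.0183), and the other 2 did not pass. Of 14 genes for degradation of p27 and the D cyclins, 2 fell and 1 rose, with a median of -0.18. Over all genes, 8.11% fell and 8.93% rose. Skp2, which recognises phosphorylated p27, and Skp1a, which links it to the ligase, fell by 0.62 and 0.72 on the log2 scale, with adjusted p-values of 0.0488 and 0.0316. Ddb1, an adaptor of CUL4 ligases, rose by 0.73 (0.0334). Without Control 1 or Control 2 these 4 genes had adjusted p-values of 0.152 to 0.272, and Skp2 had 0.0761 without DCKO 1. Ddb1 also lost its call with library totals (0.127) and on filtered log2(TPM + 1) (0.144), Skp2 with upper-quartile factors (0.0545), with no filter (0.0577) and on filtered log2(TPM + 1) (0.124), and Mnat1 on log2(TPM + 0.1) (0.0543).

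Of 20 regulators of the Cdkn2a and Cdkn2b locus and of D cyclin genes, 2 fell and 2 rose, with a median of -0.10. These counts are close to the 8.11% of all genes that fell and the 8.93% that rose. Cbx2 and Cbx7 encode chromobox subunits of Polycomb complexes, and they went opposite ways. Cbx2 fell from 157 and 154 CPM in Control to 31.7 and 42.8 in DCKO (log2 fold change -2.06, SE 0.20, adjusted p 0.00806), and Cbx7 rose from 1.41 and 0.830 to 3.50 and 5.47 CPM (2.00, SE 0.45, 0.0398). Tcf7l2, a Wnt pathway transcription factor, fell by 1.40 (0.0180), and Hmga2, a chromatin protein known to repress the Cdkn2a locus in mouse neural stem cells, rose by 0.61 (0.0488). Cbx2 kept its call without any single library. Tcf7l2, Cbx7 and Hmga2 lost theirs without Control 1 or Control 2 (adjusted p 0.0868 to 0.329), and Hmga2 also without DCKO 1 (0.0618) or DCKO 2 (0.0522). On all 4 libraries Hmga2 lost its call with library totals (0.251), DESeq2 size factors (0.0503), no filter (0.0710) and on filtered log2(TPM + 1) (0.279), where Cbx7 also lost its call (0.123). Of the 21 genes that the naming rule picks beside the family, Lats1 and Lats2 included, 13 overlap another annotated gene, as do 5 of the 10 family members, and their counts are to that extent uncertain in assignment.

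**Figure D5:**
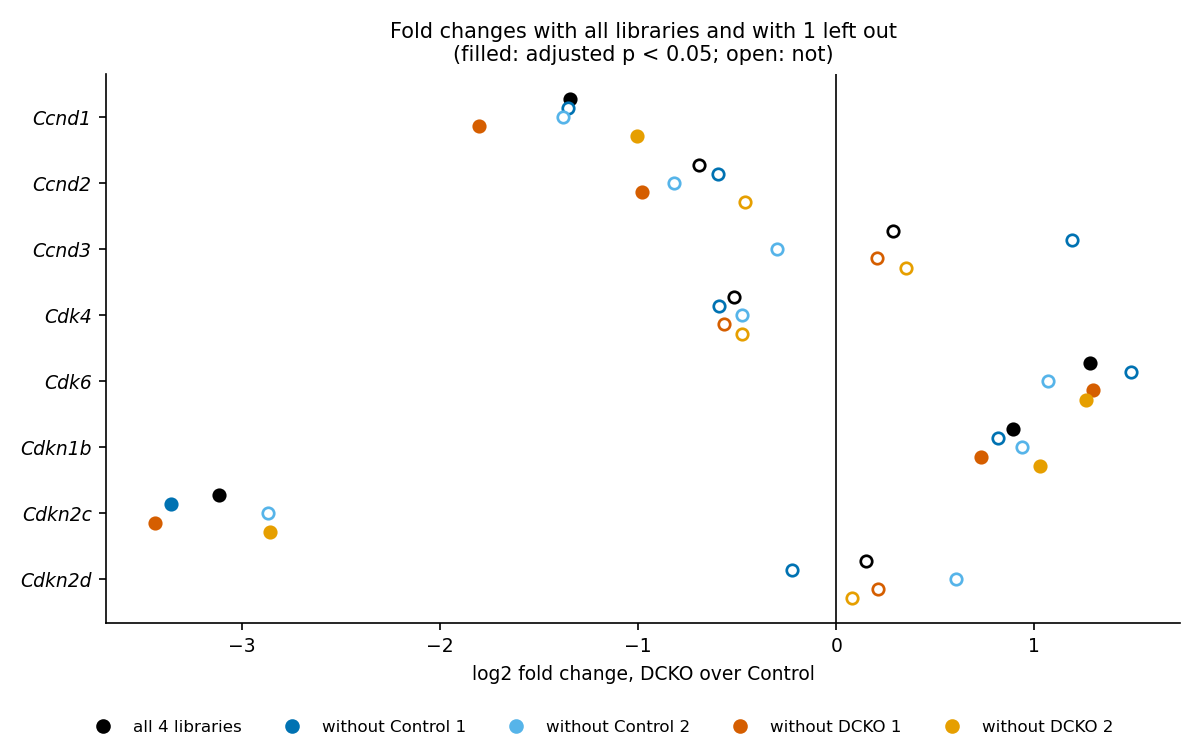
Log2 fold change of DCKO over Control in edgeR for 8 genes of the family with all 4 libraries and with each library left out, filled where the adjusted p was under 0.05. Ccnd3 changes sign without Control 2 and Cdkn2d without Control 1, while Ccnd1, Cdk6, Cdkn1b and Cdkn2c keep their side of 0 and most open points come from fits without a Control library.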

How the data were processed

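The deposited files give unscaled counts for each gene and library, TPM for each gene and library, and the authors' comparison as log2 values with a p-value and FDR. Tools listed without roles in the submitters' processing notes are StringTie, TopHat2 2.1.1, limma 3.30.13, edgeR 3.16.5 and R 3.3.2, with builds GRCm38 and mm10. How counts were made, and whether strand was used, are not given in the sources used here. The sign of the authors' deposited log2 values was checked against the counts, and 96.9% of shared genes had the same sign.

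Symbols and coordinates are those of GENCODE M21 on GRCm38, and 54409 of 54532 IDs matched a symbol. Counts were filtered with filterByExpr (minimum count 10, minimum total 15), scaled by TMM and tested in edgeR 4.0.16 (R 4.3.3) with a quasi-likelihood model of group alone, which leaves 2 residual degrees of freedom, two-sided, with Benjamini-Hochberg adjustment over all 19207 tested genes and a threshold of 0.05. SEs were derived from the F statistic. The code of the test was run on simulated counts with the same dispersion for every gene. That does not show how the test performs on these libraries. Floors of 3 counts cover counting error only. TPM shares and ratios were compared over libraries by an exact permutation test. The members, the pathway and marker lists and the rule for named genes (all members, up to 4 called genes of each pathway list by p-value, E2f1, Lats1 and Lats2) were chosen with earlier results of these data known. 1 gene that the rule picks is not reported here. Lists are described by counts and medians only. Alternatives were other scalings, no filter, DESeq2 1.42.0, limma 3.58.1 on voom values or on log2(TPM + pseudocount) with pseudocounts of 1 and 0.1, gene sets left out, a replicate block, and each library left out.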

Additional observations from a re-analysis of the deposited data

How the results depend on the processing

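Of the 10 family members, 3 were called higher and 2 lower in edgeR, counting Cdkn2b, whose test is void. Without it 2 were called higher and 2 lower, against 8.93% and 8.11% of all tested genes. On log2(TPM + 1) or log2(TPM + 0.1) with a mean TPM of at least 1, 1 member was called higher. Of all 14784 genes, 1007 and 958 were called higher there. On unfiltered log2(TPM + 1), limma called 0 higher and 0 lower, and 0 of all genes. There 6 members, Cdkn2b and its void test included, and 6446 of 30682 genes had an unadjusted p under 0.05. DESeq2 and library totals each called 4 lower, as they did 2594 and 3744 of all 19207 genes, against 1558 in edgeR with TMM scaling. Counts ranged from 0 to 3 higher and from 0 to 3 lower when 1 library was left out. The fewest calls came in the fits without a Control library. Leaving out 1 library leaves its group with a single one, assumed to vary like the other group. Over all genes, calls then ranged from 155 to 2619 higher and from 72 to 2565 lower.

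The reversed signs were those of Ccnd3 with library totals (-0.067) and without Control 2 (-0.30), and of Cdkn2d with library totals (-0.20), on filtered log2(TPM + 1) (-0.035), log2(TPM + 0.1) (-0.037), unfiltered log2(TPM + 1) (-0.035) and without Control 1 (-0.22). Without 1 library Ccnd3 ranged from -0.30 to 1.19 and Cdkn2d from -0.22 to 0.60. Neither gene was called in any of these fits. The cause was not tested. Library totals moved the median of all genes to -0.32, and 1219 genes were then higher and 3744 lower, against 1716 and 1558. Filtered log2(TPM + 1) moved it to -0.19, with 1007 genes higher and 1700 lower.

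Of pathway list genes (lists of 13, 8, 3, 14, 20 and 16 genes), 5 were called higher and 14 lower. Over all tested genes, 8.93% were called higher and 8.11% lower. The higher count was 3 with library totals, 2 and 1 on filtered log2(TPM + 1) and log2(TPM + 0.1), 0 on unfiltered TPM and 2 with the replicate block. Over all genes the higher counts in these settings were 1219, 1007, 958, 0 and 1002, against 1716 with TMM scaling. The lower count was 34 with library totals, 22 in DESeq2 and 0 on unfiltered TPM. Over all genes the lower counts there were 3744, 2594 and 0, against 1558 in edgeR with TMM scaling. Without 1 library these ranged from 0 to 5 higher and from 3 to 20 lower.

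Replicate numbers are shared by the groups only as numbers: deviations of same-numbered libraries had a correlation of -0.04 over 19207 genes. With the replicate block, 1 member was called higher and 2 lower, and over all genes 1002 and 776. Cdkn1b lost its call there (adjusted p 0.0740), and no test is given for Cdkn2b.

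With counts per kilobase of exon in place of TPM, the DCKO minus Control difference in D cyclin share was 7.66 percentage points for Ccnd2 (2.96 with TPM) and 3.13 for Ccnd3 (7.50), and the cause was not tested. For members, 85 of 106 values on all 4 libraries and 23 of 36 with 1 left out kept their direction and their side of the threshold. These tallies include the void test of Cdkn2b, which fell under the TPM filter and has no value there.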
